A study of Rattus norvegicus with 22 samples.

Results

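The comparison set all contused rat spinal cord in the series against all uninjured cord. It took the 16 arrays of cord injured by contusion, whatever treatment the rats had received, and the 6 arrays of cord without a contusion, which together are all 22 arrays of the series. The arrays were assigned by their titles. All probe sets other than the manufacturer's controls were compared, 31042 in number.

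The contused arrays came from rats whose cord was struck at thoracic level 10 by a 10 g weight falling 25 mm, with tissue taken 24 h later. There were 2 arrays of contusion alone, 2 of contusion with clenbuterol (an agonist of beta-2 adrenergic receptors, labelled 150 mg/kg), 3 with X-rays (10 Gy), 3 with tempol (275 mg/kg, a nitroxide that scavenges superoxide), 3 with tempol plus buthionine sulfoximine (BSO, 150 mg/kg, an inhibitor of glutathione synthesis) and 3 with BSO alone. Clenbuterol, X-rays and tempol were given 20 min after the impact and BSO 24 h before it. The uninjured arrays were 3 of rats with a laminectomy, the removal of bone over the cord without an impact, and 3 of normal rats. No interval between laminectomy and collection is given in the sources used here, nor are strain, sex, age or the number of animals. The p-values therefore reflect only how far samples of a group differ, which may be technical. All rats were perfused with buffer before the cord was taken, and each array measured RNA of a whole piece of tissue.

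Contusion tears vessels and cells at the impact site, and the injured cord then releases chemokines, small secreted proteins that draw white blood cells from the circulation. Neutrophils come in first and monocytes, which turn into macrophages, follow. Oligodendrocytes, which make myelin, and neurons are lost at the site over the same period, while astrocytes change state.

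The 22 arrays had the same scale, with equal mean signals after trimming 2% of values at each end. Some markers of nervous tissue were among the strongest signals. Mbp (myelin basic protein) lay between 19105.8 and 54757.9 on contused arrays and between 27249.7 and 84706.7 on uninjured arrays. Gfap (the astrocyte filament protein) lay between 8054.3 and 20095.2 on contused and between 9951.8 and 45856.3 on uninjured arrays. The neuronal genes Snap25 and Nefl were also strong, with 99.6% and 99.3% of probe sets having a lower mean. Other genes checked were weaker, with 44.2% of probe sets lower than Slc6a5, 28.0% lower than Hoxc8 and 55.6% lower than Hoxa7. Laminectomy 2 and normal 1, both uninjured, had the lowest median correlations with the other arrays, 0.667 and 0.685, against at least 0.725 for the rest. The 3'-to-5' signal ratio of GAPDH, a measure of RNA integrity, averaged 0.37 ± 0.28 on contused and 0.64 ± 0.45 on uninjured arrays (log2, SD, n = 16 and 6, exact permutation p = 0.101, adjusted p = 0.252 over 5 quality measures). No quality measure passed. Over all arrays, laminectomy 2 had the highest 3'-to-5' ratio of actin (1.38, log2) and normal 1 that of GAPDH (1.49), and the hexokinase ratio of normal 1 (2.82) was second to that of contusion 2 (3.03).

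Contused cord had higher signals for some of the chemokine, neutrophil, macrophage, reactive astrocyte and immediate early genes, for a globin gene and for heme oxygenase, and lower signals for some genes of oligodendrocytes, synapses, axons and the resting state of astrocytes. The strongest call was Ccl2, 22.5-fold higher. Of 31042 probe sets, 66 were higher (0.213%) and 33 lower (0.106%) at an adjusted p under 0.05 (limma with Benjamini-Hochberg adjustment), 0.319% in all. They named 52 genes higher and 26 lower. With laminectomy as the only reference 1 of these 78 genes (Ccl2) kept its call, and with normal cord as the only reference 50 did. Of the 66 probe sets, 6 were assigned to several gene symbols and 7 to none, and of the 33, 7 to none, and these are not named. In whole tissue, fewer cells of a type and less RNA per cell cannot be told apart.

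The median difference among the calls was 1.89 on the log2 scale for higher and -1.49 for lower probe sets, against 0.001 over all probe sets. All 66 higher and all 33 lower probe sets lay on the same side of the laminectomy mean and of the normal mean. Both means enter the contrast that made the calls, so this adds little to them. In 19 of the higher and 8 of the lower probe sets no contused array overlapped any uninjured array, which over all probe sets was so for 22 higher (0.0709%) and 18 lower (0.058%). When each array in turn was left out, 26 of the 52 higher and 6 of the 26 lower genes kept their calls in all 22 fits. These 26 are the higher genes with an adjusted p of 0.0122 or less, and the 6 are Ugt8, Cplx1, Omg, Ppm1k, Gpr37 and Colgalt1. Without laminectomy 2 and normal 1 the calls were 76 higher and 3 lower, and of the 78 named genes 37 remained called and 0 changed sign. These are the 2 arrays with the highest actin and GAPDH ratios, and the part of RNA quality in the lower calls was not tested. Of the 78 genes, 38 had other probe sets with the same symbol. Another of them was called for 1 gene (Il33), and for 13 genes at least 1 other probe set had the opposite sign.

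**Figure D1:**
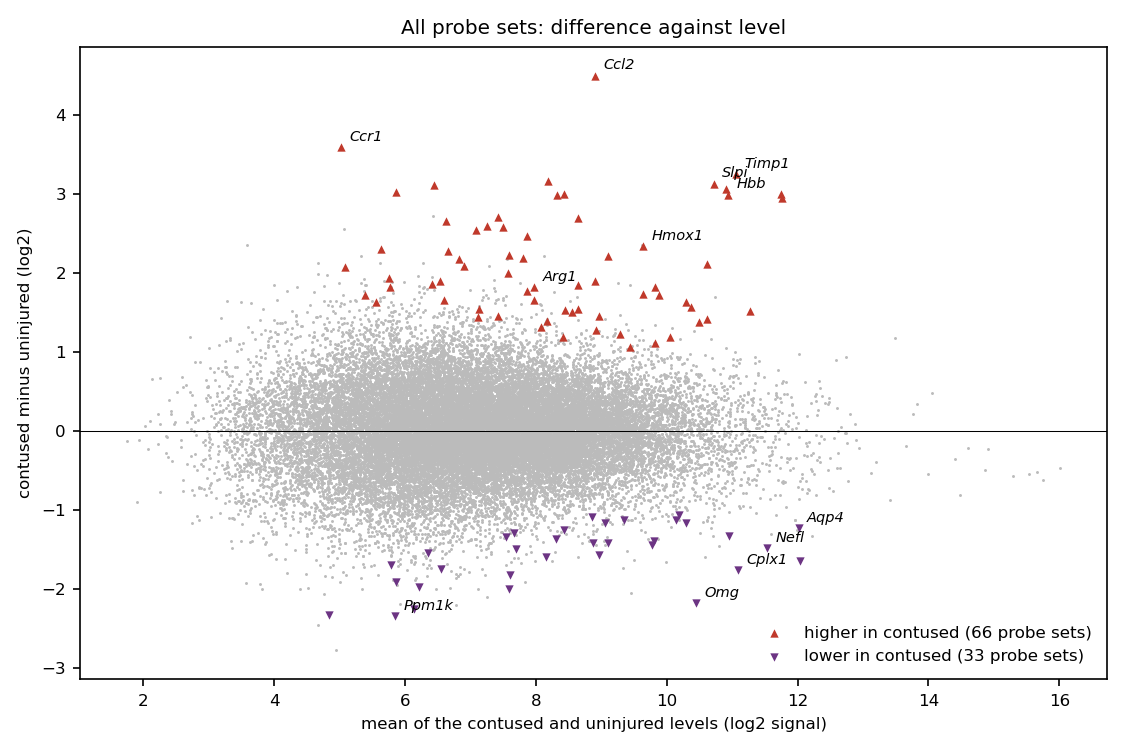
Difference between contused and uninjured cord (log2, vertical axis) against the mean of both levels (log2 signal, horizontal axis) for all 31042 probe sets (grey), with the 66 called higher in red and the 33 called lower in purple. Ccl2 stands highest at 4.49, and the lower calls reach -2.34.

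Of the chemokine genes 6 rose, Ccl2 with the largest difference of all calls. Ccl2, which attracts monocytes, had a lowest, median and highest signal of 612.5, 2524.3 and 5077.0 on contused arrays. The single laminectomy arrays had 338.9, 502.7 and 128.4, and the single normal arrays 40.0, 52.9 and 23.2. Every contused array lay above every uninjured array, and laminectomy lay above normal. The difference was 4.49 ± 0.37 (log2, standard error, as after each ± below, adjusted p = 6.75e-06 by limma). Ccl7, a relative of Ccl2 that also attracts monocytes, ran from 199.0 to 1030.9 on contused arrays with a median of 419.95, against 17.8 to 159.9 on uninjured arrays with a median of 68.25, with no overlap and a difference of 2.71 ± 0.28. Ccl6, a rodent chemokine for macrophages, was higher by 3.17 ± 0.32 and Ccl3, which recruits and activates several kinds of white cell, by 2.22 ± 0.37. For Ccl6, 13 of the 16 contused arrays exceeded every uninjured array, and the lowest was tempol 2 at 261.9.

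Among the chemokines that act on neutrophils, Cxcl2 had signals of 512.2 to 2047.2 on contused arrays (median 795.15), against 23.3 to 398.8 on uninjured arrays (median 97.85), with no overlap and a difference of 2.98 ± 0.40. Cxcl1 ran from 54.2 to 1064.8 on contused arrays (median 255.1), against 19.7 to 122.2 on uninjured arrays (median 24.9), and 15 of the 16 contused arrays lay above all uninjured ones. Its difference was 2.66 ± 0.46 (adjusted p = 0.0123, and 0.0556 without laminectomy 2). The receptor Ccr1, which binds Ccl3 and Ccl7, was 5.6 on the clenbuterol 2 array and between 39.8 and 307.4 on the other contused arrays, against 6.1 to 14.5 on uninjured arrays. Except for clenbuterol 2, all contused arrays lay above the uninjured ones, and the difference was 3.59 ± 0.49. In all, 6 of 24 measured chemokine genes rose and 0 fell, against 0.302% and 0.141% of 14217 genes, and their median difference was 0.55 against 0.01 over all genes. The other 18 did not pass: Cxcl10, an interferon-induced chemokine, differed by 0.67 ± 0.39 and Cx3cl1, a neuronal chemokine, by -1.08 ± 0.35.

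The RefSeq promoters (assembly GRCr8, 250 bases before to 50 after the annotated start) of 3 of these genes are printed below because all 3 were called higher and their windows hold motifs that classically lie in chemokine promoters. They are Cxcl1 at chr14:17479272-17479571 (minus strand), Cxcl2 at chr14:17467206-17467505 (minus strand) and Ccl7 at chr10:67513845-67514144 (plus strand). In Cxcl1 and Cxcl2 capitals mark matches, on either strand, to a form of the NF-kB site (GGG, any 2 bases, then TTTCC). In Ccl7 they mark matches to the TATA box, TATAAA, and to the AP-1 site, which reads TGANTCA.
Cxcl1: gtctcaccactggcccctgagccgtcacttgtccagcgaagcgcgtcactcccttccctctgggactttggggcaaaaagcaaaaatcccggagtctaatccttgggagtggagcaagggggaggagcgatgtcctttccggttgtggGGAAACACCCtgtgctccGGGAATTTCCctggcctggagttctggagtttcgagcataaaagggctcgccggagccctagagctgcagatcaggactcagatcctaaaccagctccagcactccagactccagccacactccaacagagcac
Cxcl2: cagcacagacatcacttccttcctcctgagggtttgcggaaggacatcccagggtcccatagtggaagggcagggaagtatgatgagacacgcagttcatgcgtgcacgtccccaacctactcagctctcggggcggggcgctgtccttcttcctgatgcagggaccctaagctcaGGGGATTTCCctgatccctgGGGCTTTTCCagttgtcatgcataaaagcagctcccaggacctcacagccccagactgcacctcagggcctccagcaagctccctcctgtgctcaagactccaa
Ccl7: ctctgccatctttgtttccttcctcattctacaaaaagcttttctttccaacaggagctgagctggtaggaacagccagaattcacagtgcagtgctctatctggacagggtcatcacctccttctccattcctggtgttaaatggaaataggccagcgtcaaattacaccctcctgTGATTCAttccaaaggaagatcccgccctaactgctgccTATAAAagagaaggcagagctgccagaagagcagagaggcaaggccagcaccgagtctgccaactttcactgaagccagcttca
The matches lie at -102 to -93 and -84 to -75 in Cxcl1, at -74 to -65 and -54 to -45 in Cxcl2, and at -73 to -67 (AP-1) and -34 to -29 (TATA box) in Ccl7, counted from the start at 0. The marked motifs do not overlap one another in these windows. The table held a promoter for 60 of the 78 called genes. The NF-kB form occurred in 4 of 39 promoters of higher genes (Cxcl1, Cxcl2, Mcl1 and Pla2g2a; 10.3%), in 0 of 21 of lower genes and in 1.51% of all 27457 promoters. The AP-1 site occurred in 8 of 39 higher genes (20.5%), in 1 of 21 lower genes (Omg, 4.76%) and in 7.33% of all promoters, and the letters TATAAA in 25.6%, 0 of 21 and 14.3%. Matches were counted at any position on either strand. Some TATAAA matches therefore lie far from the usual place of a TATA box, such as -204 to -199 in Spp1 and 38 to 43 in Esm1. A search for TGACNNNGC, the core of the antioxidant response element, gave 10.3%, 4.76% and 12.2%. A search for the cyclic AMP response element, TGACGTCA, gave 5.13%, 0 of 21 and 1.91%. These are matches of letters, not measured binding.

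**Figure D2:**
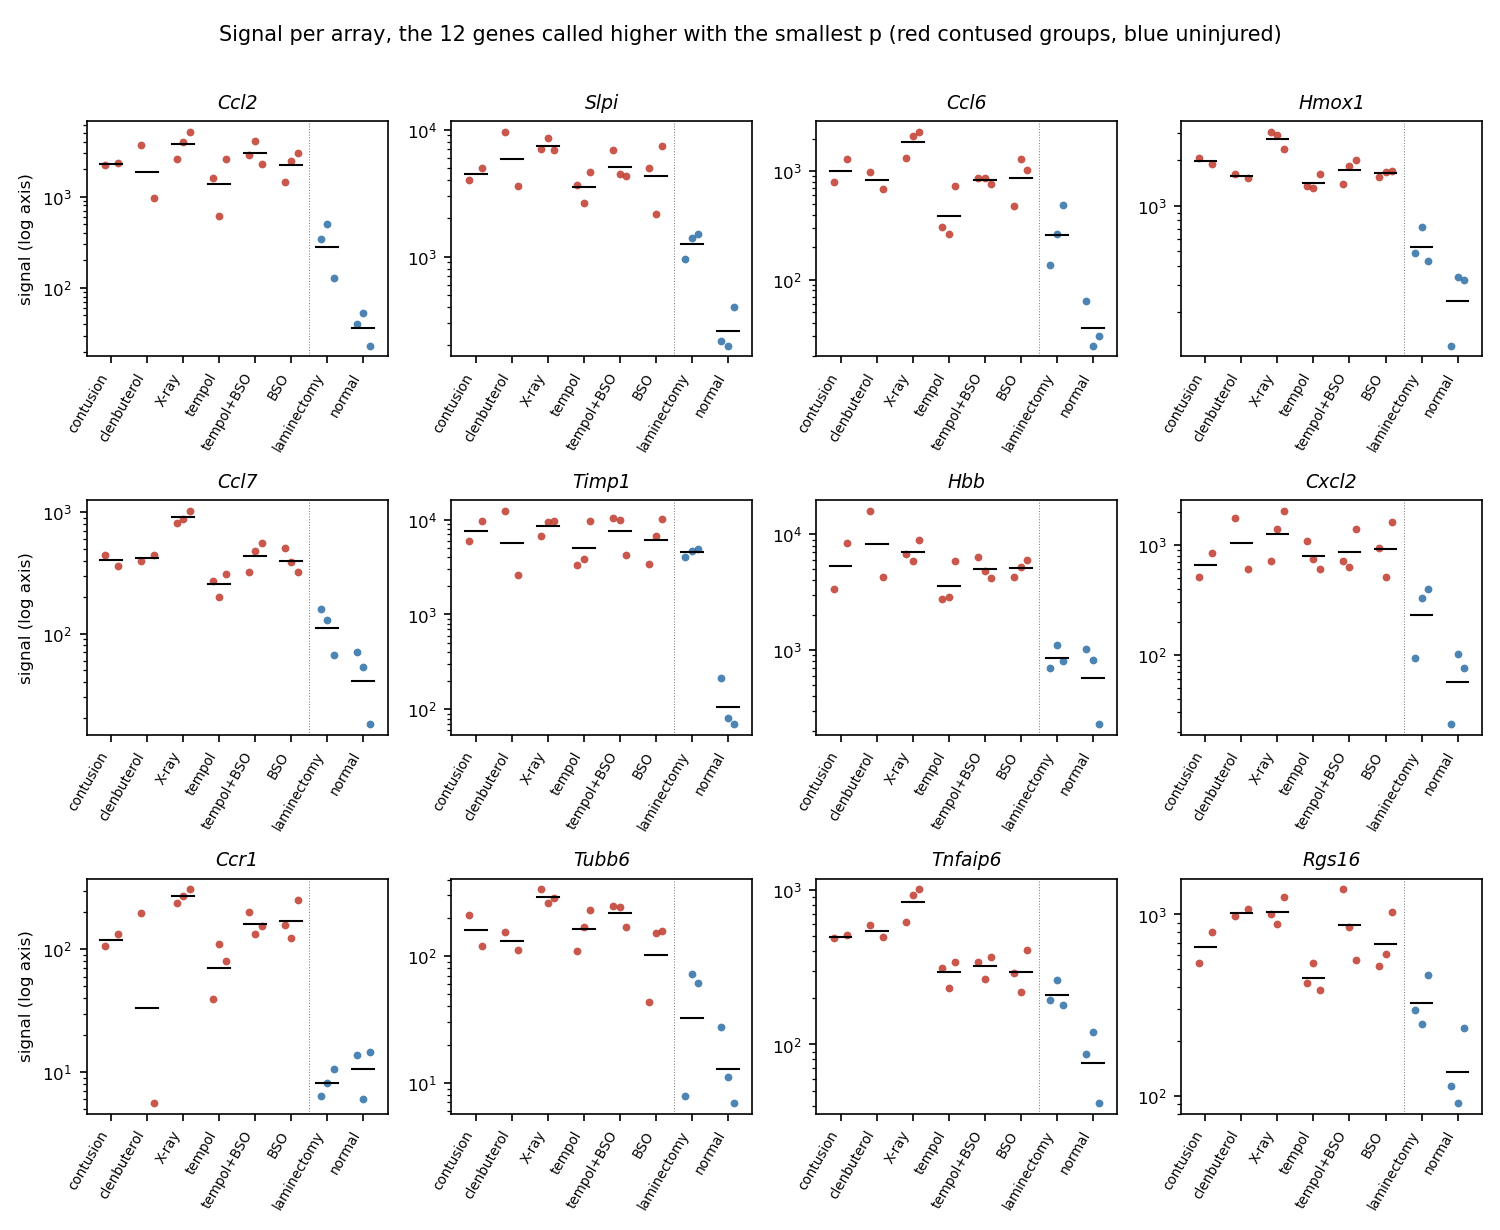
Signal on each array (log axis) for the 12 genes called higher with the smallest p, by group, with contused groups in red at the left and uninjured groups in blue at the right (horizontal bars, geometric group means). Ccl2, Slpi, Hmox1, Ccl7, Hbb and Cxcl2 show no overlap between the 16 contused and 6 uninjured arrays, while Timp1 on laminectomy arrays lies within the contused range.

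Neutrophil genes rose in part. Slpi, a secreted inhibitor of neutrophil elastase, had signals of 2149.6 to 9562.4 on contused arrays (median 4849.2), against 198.1 to 1505.6 on uninjured arrays (median 679.2), with no overlap and a difference of 3.13 ± 0.29 (limma, adjusted p = 3.07e-05). S100a9 and S100a8, the subunits of calprotectin, an abundant neutrophil protein, were higher by 2.70 ± 0.40 and 2.00 ± 0.39, and S100a9 did not overlap (467.5 to 2786.3 on contused arrays, against 26.4 to 440.2 on uninjured arrays). These were 3 of 13 measured neutrophil genes (median 0.75), against 0.302% of all genes. The enzymes and receptors of that list did not pass, with Mmp9 at 0.50 ± 0.38, Mmp8 at 1.01 ± 0.49 and Cxcr2 at 0.61 ± 0.31. Of the 13 genes 11 had a positive difference and 2 a negative one, Np4 (-0.89 ± 0.55) and RatNP-3b (-0.05 ± 0.54). The summed signal of the list was 5214.0 to 13935.9 on contused arrays and 1178.2 to 3488.3 on uninjured arrays, without overlap. This sum of linear signals is weighted to the strongest members and so largely repeats the calls. Its median on contused arrays was 7508.5, against 4849.2 for Slpi alone. Il1r2, a decoy receptor for interleukin 1, rose by 3.12 ± 0.61, with 13 contused arrays above all uninjured ones.

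Of 25 macrophage and phagocyte genes, 6 rose, 0 fell and 24 had a positive difference (median 0.86). The shares over all genes were 0.302% higher, 0.141% lower and 50.4% positive. Arg1, which breaks down arginine, had 197.8 to 894.6 on contused arrays (median 463.45), against 82.8 to 189.8 on uninjured arrays (median 139.85), without overlap and higher by 1.82 ± 0.28. Plin2, which coats lipid droplets, ran from 1714.3 to 3693.1 on contused arrays, against 511.1 to 1508.3 on uninjured arrays, and Cd14, which helps sense bacterial lipopolysaccharide, from 290.2 to 866.2 on contused and 91.1 to 256.0 on uninjured arrays. Both were without overlap, and they were higher by 1.37 ± 0.22 and 1.40 ± 0.25. Gpnmb, a glycoprotein of phagocytes, Spp1 (osteopontin) and Cd36, a scavenger receptor, rose by 1.82 ± 0.29, 1.19 ± 0.24 and 2.08 ± 0.42. Cd68, a lysosomal marker of macrophages, did not pass at 0.20 ± 0.46 and had negative differences under 5 of the alternatives. The summed macrophage signal did overlap: it was 19010.3 to 34592.8 on contused arrays, against 17866.5 to 39224.2 with laminectomy and 7870.1 to 10371.3 in normal cord. The list's median difference was 0.35 against laminectomy and 1.38 against normal cord.

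Lists of resident and other immune cells had no calls. None of 17 microglia genes passed in either direction (median 0.24), with Aif1, which encodes the microglial protein Iba1, at 0.19 ± 0.49 and Tyrobp, a signalling adaptor, at 0.67 ± 0.25. At an unadjusted p under 0.05 limma had 1 of the 17 higher and 0 lower, against 5.5% and 5.67% of all genes. Of 21 lymphocyte genes 0 passed in either direction (median -0.00, with 0 at that unadjusted level). Skeletal muscle and Schwann cell genes, which neighbouring tissue and nerve roots could bring in, had 0 calls of 16 and 0 of 9, with medians of 0.05 and 0.14 and 1 and 0 members higher and 1 and 1 lower at the unadjusted level.

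Globin and heme handling were represented by a few genes with large differences. Hbb, a beta-globin gene of red cells, had 2746.5 to 15965.9 on contused arrays (median 5548.75), against 227.2 to 1099.7 on uninjured arrays (median 806.75). No arrays overlapped and the difference was 2.99 ± 0.34 (limma, adjusted p = 0.000166), similar against laminectomy (2.70) and normal cord (3.28). Globin genes have near-identical copies, so which copy the signal belongs to is uncertain. Of 16 listed red cell genes 9 were measured by probe sets with 1 symbol, and the alpha-globin genes were not among them. Probe sets assigned to several symbols did not count for the list. The other 8 measured red cell genes did not pass, and the nearest was Alas2, an enzyme of heme synthesis in red cells, at 1.37 ± 0.33. Hmox1, which breaks down heme, ran from 1308.1 to 3038.6 on contused arrays (median 1683.7), against 486.5, 724.4 and 435.3 with laminectomy and 120.1, 338.5 and 326.7 in normal cord, without overlap and higher by 2.33 ± 0.24. The X-ray arrays held the highest Hmox1 signals, 3038.6, 2892.6 and 2363.7. Of 35 genes of the NRF2 and glutathione system, the cell's antioxidant programme, 2 rose, against 0.302% of all genes. They were Hmox1 and Mgst2, a microsomal glutathione transferase (1.53 ± 0.25). Gclc, the catalytic subunit of the enzyme that BSO inhibits, had a difference of 0.16 ± 0.29, and the list's median was 0.05. No metallothionein gene passed, with Mt1 at 0.30 ± 0.41 and 6 genes measured, of which limma had 1 higher and 1 lower at an unadjusted p under 0.05.

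Timp1, an inhibitor of matrix metalloproteinases, was 9.49-fold higher in contused than uninjured cord (3.25 ± 0.37), but the uninjured groups differed widely. Its signal was 2585.9 to 12368.9 on contused arrays (median 8120.6), against 4063.4, 4641.9 and 4954.9 with laminectomy and 215.7, 80.9 and 69.4 in normal cord. Of the 16 contused arrays 11 lay above all laminectomy arrays and all 16 above the normal ones, so that the difference was 0.54 against laminectomy and 5.95 against normal cord. Tnfaip6, which binds hyaluronan, rose by 1.77 ± 0.25 and Fbln1, a matrix glycoprotein, by 1.63 ± 0.31, but Fbln1's other probe set, with the higher mean, had -0.25. Ctsl, a lysosomal protease, rose by 1.27 ± 0.20, with 0.20 against laminectomy and 2.35 against normal cord. Tfpi2 and Pla2g2a, a secreted protease inhibitor and a secreted phospholipase, rose by 2.19 ± 0.43 and 1.71 ± 0.35, and Esm1, a proteoglycan of activated endothelium, by 2.54 ± 0.53.

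Of 22 genes of reactive astrocytes 3 rose, against 0.302% of all genes. They were Timp1, Emp1, a membrane protein (1.56 ± 0.28, without overlap), and Cd14. The median was 0.70, made up of -0.04 against laminectomy and 1.47 against normal cord. Gfap did not pass (-0.54 ± 0.22, adjusted p = 0.388 by limma). Its signals were 8054.3 to 20095.2 on contused arrays, against 27486.8, 45856.3 and 27158.6 with laminectomy and 12396.1, 9951.8 and 13415.2 in normal cord. Every contused array lay below every laminectomy array, and the contused range took in the whole normal range. Lcn2, a siderophore-binding protein of reactive astrocytes and neutrophils, had 0.91 ± 0.35.

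Immediate early genes and regulators of transcription formed another group. Fos and Egr1, transcription factors that follow stimulation within minutes, rose by 2.59 ± 0.49 and 2.47 ± 0.43, but Fos's other probe set had 0.41. Egr1 had 338.7 to 1273.9 on contused arrays (median 526.6), against 7.9 to 359.0 on uninjured arrays (median 152.65), and 14 of 16 contused arrays lay above all uninjured ones. Dusp6, a phosphatase that switches off ERK, ran from 542.4 to 1193.4 on contused arrays (median 852.5), against 229.5 to 534.4 on uninjured arrays (median 256.45), without overlap and higher by 1.45 ± 0.23. With Maff, a small Maf factor (1.89 ± 0.37), 4 of 26 immediate early genes rose and 0 fell (median 0.49). Among all genes 0.302% rose and 0.141% fell. Cebpd, Nfil3 and Runx1, further transcription factors, rose by 1.45 ± 0.28, 2.09 ± 0.43 and 1.66 ± 0.35, but Cebpd's 2 other probe sets had -0.09 and 0.11. Rgs16, which turns off G-protein signalling, rose by 1.84 ± 0.27 and Il33, a cytokine released by damaged cells, by 1.12 ± 0.22, with a call on its other probe set too.

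The remaining higher genes had roles in the cytoskeleton, metabolism and survival. Tubb6, a beta-tubulin, rose by 3.03 ± 0.42 on 1 probe set and had 0.04 on the other. Anxa2, a membrane-binding annexin, rose by 1.52 ± 0.25 with -0.41 on its other probe set. Tpm3 (tropomyosin) and Twf1 (twinfilin), which bind actin, rose by 2.28 ± 0.38 and 1.23 ± 0.25 on 1 of their probe sets each; the 11 others of Tpm3 lay between -0.30 and 1.28 and the other of Twf1 at -0.21. Ldha, which makes lactate, rose by 1.64 ± 0.27, Hspb8, a small heat shock protein, by 1.66 ± 0.35 and Mcl1, which holds back cell death, by 1.86 ± 0.36. Tspo, a mitochondrial protein used as a marker of inflammation, rose by 1.06 ± 0.21, Rbm3, an RNA-binding protein induced by cold, by 1.55 ± 0.26 and the neuropeptide galanin (Gal) by 1.42 ± 0.25. Rin2, Stk17b, Snx32, Slfn4 and Cttnbp2nl complete the list, with differences of 1.18 to 2.30. The other probe sets of Slfn4 and Rin2, each with the higher mean, had 0.08 and 0.38, and those of Stk17b had -0.13 and 0.40.

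Some genes of oligodendrocytes fell. Omg, the oligodendrocyte myelin glycoprotein, had 216.9 to 990.8 on 15 contused arrays and 3298.3 on clenbuterol 2, against 3396.1, 2188.9 and 2681.6 with laminectomy and 2815.5, 3170.7 and 3863.9 in normal cord. Except for clenbuterol 2, all contused arrays lay below all uninjured ones, and Omg fell by 2.18 ± 0.34 (log2, limma, adjusted p = 0.00585). Ugt8, which makes the myelin lipid galactosylceramide, had 1258.4 and 1486.7 on the clenbuterol arrays and 295.0 to 680.5 on the other 14 contused arrays, against 1090.3 to 2074.2 on uninjured arrays. Only the clenbuterol arrays reached the uninjured range, and the difference was -1.39 ± 0.21, with 0.41 on the gene's other probe set. Gpr37, a receptor of myelinating cells, ran from 160.8 to 564.7 on contused arrays (median 277.05), against 745.4 to 1093.0 on uninjured arrays (median 801.75), without overlap (-1.57 ± 0.27). Olig1, a transcription factor of the lineage, ran from 589.5 to 1053.7 on contused and from 1201.3 to 2859.0 on uninjured arrays, also without overlap (-1.06 ± 0.22), and Ermn, a protein of the myelin sheath, fell by 1.41 ± 0.30. Ermn's other probe sets had -1.05 and, on that with the highest mean, -0.49.

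Of 25 myelin and mature oligodendrocyte genes 3 fell on the probe set with the highest mean, 4 on any probe set, and 0 rose. The median was -0.60, with 23 of 25 differences negative, against a median of 0.01 and 50.4% positive over all genes. At an unadjusted p under 0.05 limma had 12 of the 25 lower, against 5.67% of all genes. The share of all genes called lower at the adjusted threshold was 0.141%. The major myelin genes did not pass: Mbp differed by -0.57 ± 0.30, Mog (myelin oligodendrocyte glycoprotein) by -0.90 ± 0.21 and Mag (myelin-associated glycoprotein) by -0.51 ± 0.22. Among 13 progenitor genes Olig1, which is in both lists, fell and 0 rose (median -0.41). At the unadjusted level limma had 1 progenitor gene higher and 3 lower. Vcan had the highest difference of that list, 1.78 ± 0.41, and did not pass. The summed myelin signal was 35587.1 to 89862.3 on contused arrays, against 55322.4 to 132145.9 on uninjured arrays, with 7 of the 16 contused arrays below all uninjured ones.

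**Figure D3:**
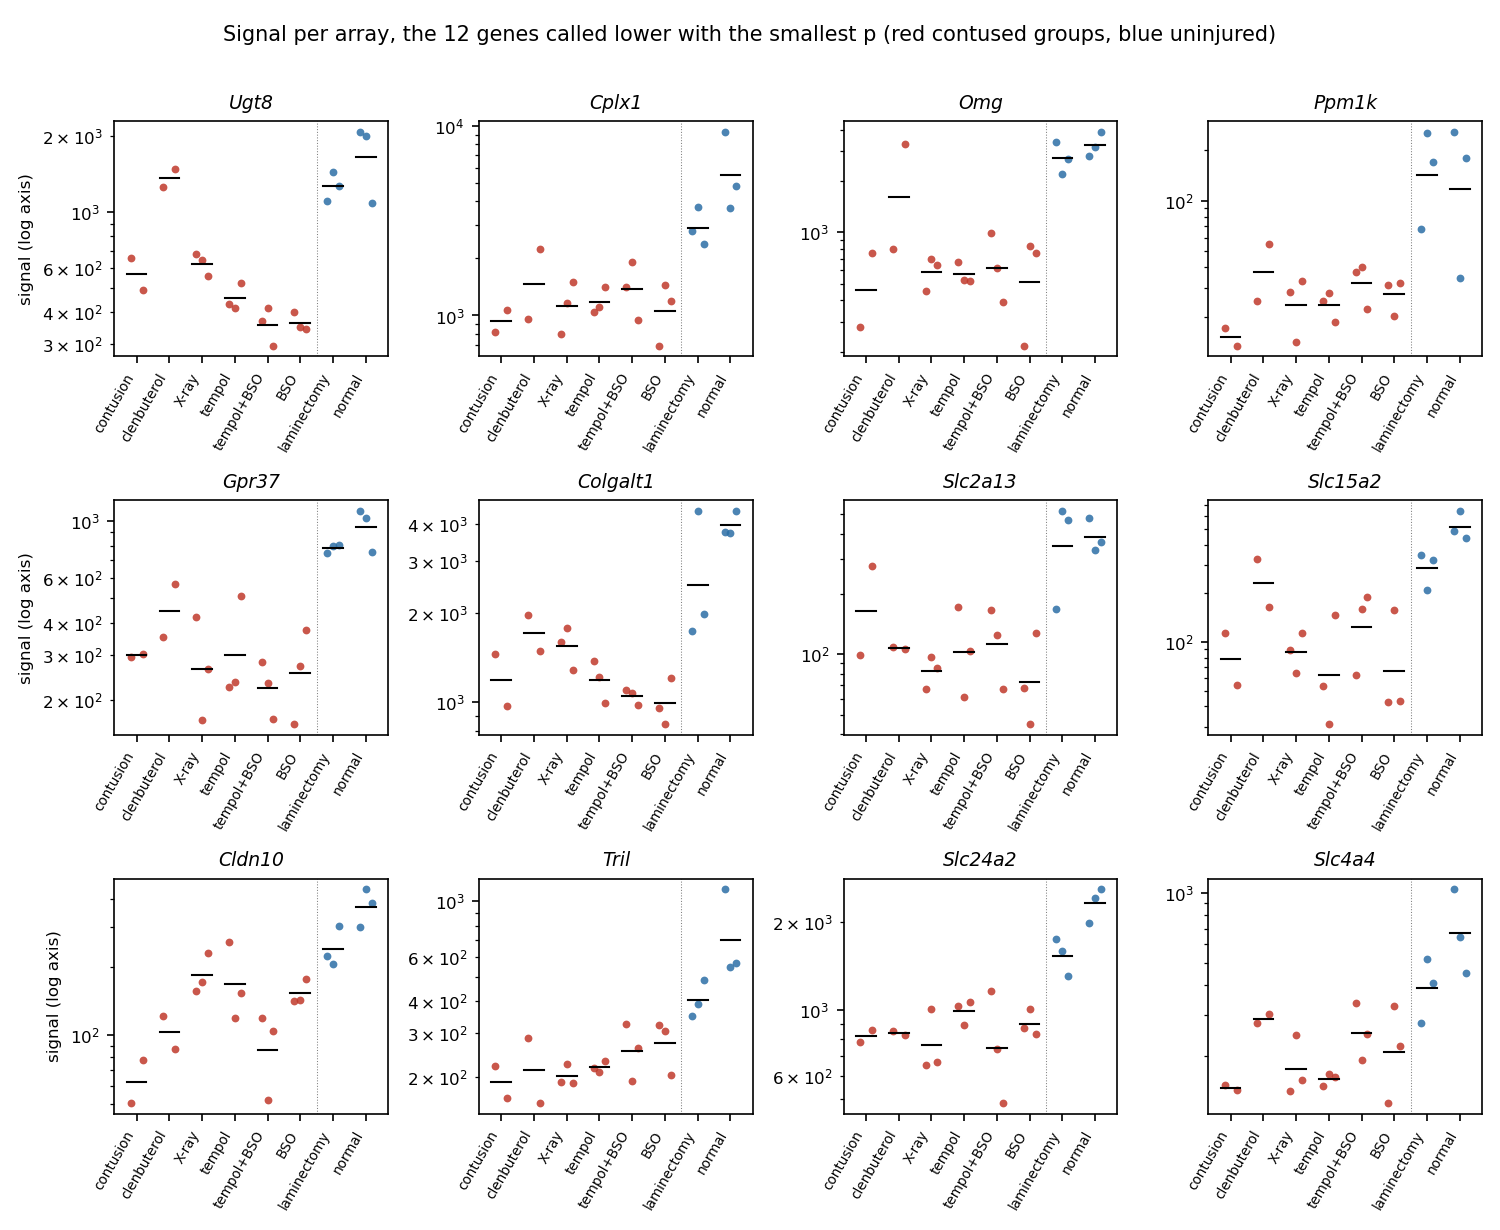
Signal on each array (log axis) for the 12 genes called lower with the smallest p, by group, with contused groups in red at the left and uninjured groups in blue at the right (horizontal bars, geometric group means). Cplx1, Gpr37, Tril and Slc24a2 show no overlap, and the clenbuterol arrays of Ugt8 and 1 of those of Omg lie within the uninjured range.

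Some genes of synapses and axons fell. Cplx1, a complexin that clamps vesicle fusion, had 691.8 to 2258.0 on contused arrays (median 1137.35), against 2376.8 to 9303.6 on uninjured arrays (median 3715.85), without overlap and lower by 3.40-fold (-1.77 ± 0.28). Sncb (beta-synuclein) ran from 190.6 to 1045.3 on contused and from 1099.1 to 2847.9 on uninjured arrays, without overlap (-1.44 ± 0.29), though its other probe set had 0.89. Nefl, the light neurofilament chain of axons, had a median of 1708.65 on contused arrays, against 4676.2 on uninjured arrays, and 14 of 16 contused arrays lay below all uninjured ones (-1.49 ± 0.29). Scn1a, a sodium channel, ran from 83.5 to 314.9 on contused and from 386.2 to 735.1 on uninjured arrays, without overlap (-1.59 ± 0.32). Slc24a2, a sodium, potassium and calcium exchanger, ran from 484.4 to 1160.7 on contused and from 1304.1 to 2573.4 on uninjured arrays, likewise without overlap (-1.16 ± 0.22). Its relative Slc24a3 fell by 1.49 ± 0.32, with 0.70 on the other probe set. Gabbr2, a GABA-B receptor subunit, Gria4, an AMPA receptor subunit, and Vsnl1, a neuronal calcium sensor, fell by 1.16 ± 0.22, 1.98 ± 0.42 and 1.12 ± 0.24. Gria4's other probe sets had -0.68 and, on that with the highest mean, -0.36. Apc2, a neuronal relative of the APC protein, fell by 1.65 ± 0.34.

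By list, 2 of 23 synaptic vesicle genes fell (median -0.70, 18 negative) and 1 of 23 axon cytoskeleton genes (median -0.56, 19 negative), and 0 rose in either. Of all genes 0.141% fell and 0.302% rose. At an unadjusted p under 0.05 limma had 10 of the synaptic vesicle and 11 of the axon genes lower. At that level 5.5% of all genes were higher and 5.67% lower. Snap25, a fusion protein of vesicles, did not pass at -1.12 ± 0.33, nor did Nefh, the heavy neurofilament chain, at -1.33 ± 0.33. Of 24 transmitter receptor genes 20 were negative (median -0.32), and on the probe sets with the highest mean 0 passed in either direction, with 1 higher and 5 lower at the unadjusted level by limma. Of 26 channel genes 1 fell, namely Scn1a, and 0 rose (median -0.17), with 3 higher and 3 lower at the unadjusted level by limma. Cacng2, a calcium channel subunit that also carries AMPA receptors to the synapse, had the highest difference of that list, 1.84 ± 0.46, and did not pass. Of 20 transmitter genes (synthesis, transport and peptides) 0 passed, with 3 higher and 7 lower at that level, but their summed signal did not overlap, at 8690.4 to 11439.6 on contused arrays and 11492.6 to 15643.3 on uninjured arrays. That sum is weighted to the strongest members, and the gap between the ranges, 11439.6 to 11492.6, was narrow.

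Of the astrocyte genes of the resting cord 2 fell. Aqp4, the water channel of astrocyte end-feet, had 1167.2 to 5633.6 on contused arrays (median 2431.95), against 4361.1 to 10256.7 on uninjured arrays (median 5876.2), with 12 of 16 contused arrays below all uninjured ones and a difference of -1.23 ± 0.26. Its 2 other probe sets had 0.04 and 0.08. Slc4a4, a sodium bicarbonate transporter, fell by 1.36 ± 0.26. These were 2 of 18 homeostatic astrocyte genes, with 0 higher, a median of -0.57 and 9 lower at an unadjusted p under 0.05 by limma. For all genes the lower shares were 0.141% and, at the unadjusted level, 5.67%. Gja1, the main gap junction protein of astrocytes, did not pass at -1.23 ± 0.32. Outside that list Slc15a2, a peptide transporter, Cldn10, a claudin, Tril, an accessory of toll-like receptor signalling, and Id4, an inhibitor of differentiation, fell by 2.00 ± 0.37, 1.35 ± 0.25, 1.26 ± 0.23 and 1.12 ± 0.23. Ppm1k, a mitochondrial phosphatase of branched-chain amino acid breakdown, fell by 2.34 ± 0.38, and Slc2a13, a myo-inositol transporter, by 1.82 ± 0.33, with -0.53 and -0.05 on the other probe sets of Ppm1k and 0.45 on that of Slc2a13. Colgalt1, which adds galactose to collagen, Mmd2 and Tmem229a fell by 1.33 ± 0.23, 1.42 ± 0.30 and 1.75 ± 0.36, and the 3 other probe sets of Colgalt1 had -0.03, -0.39 and 0.79, and those of Tmem229a had -0.18 and, on the probe set with the highest mean, 0.18.

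**Figure D4:**
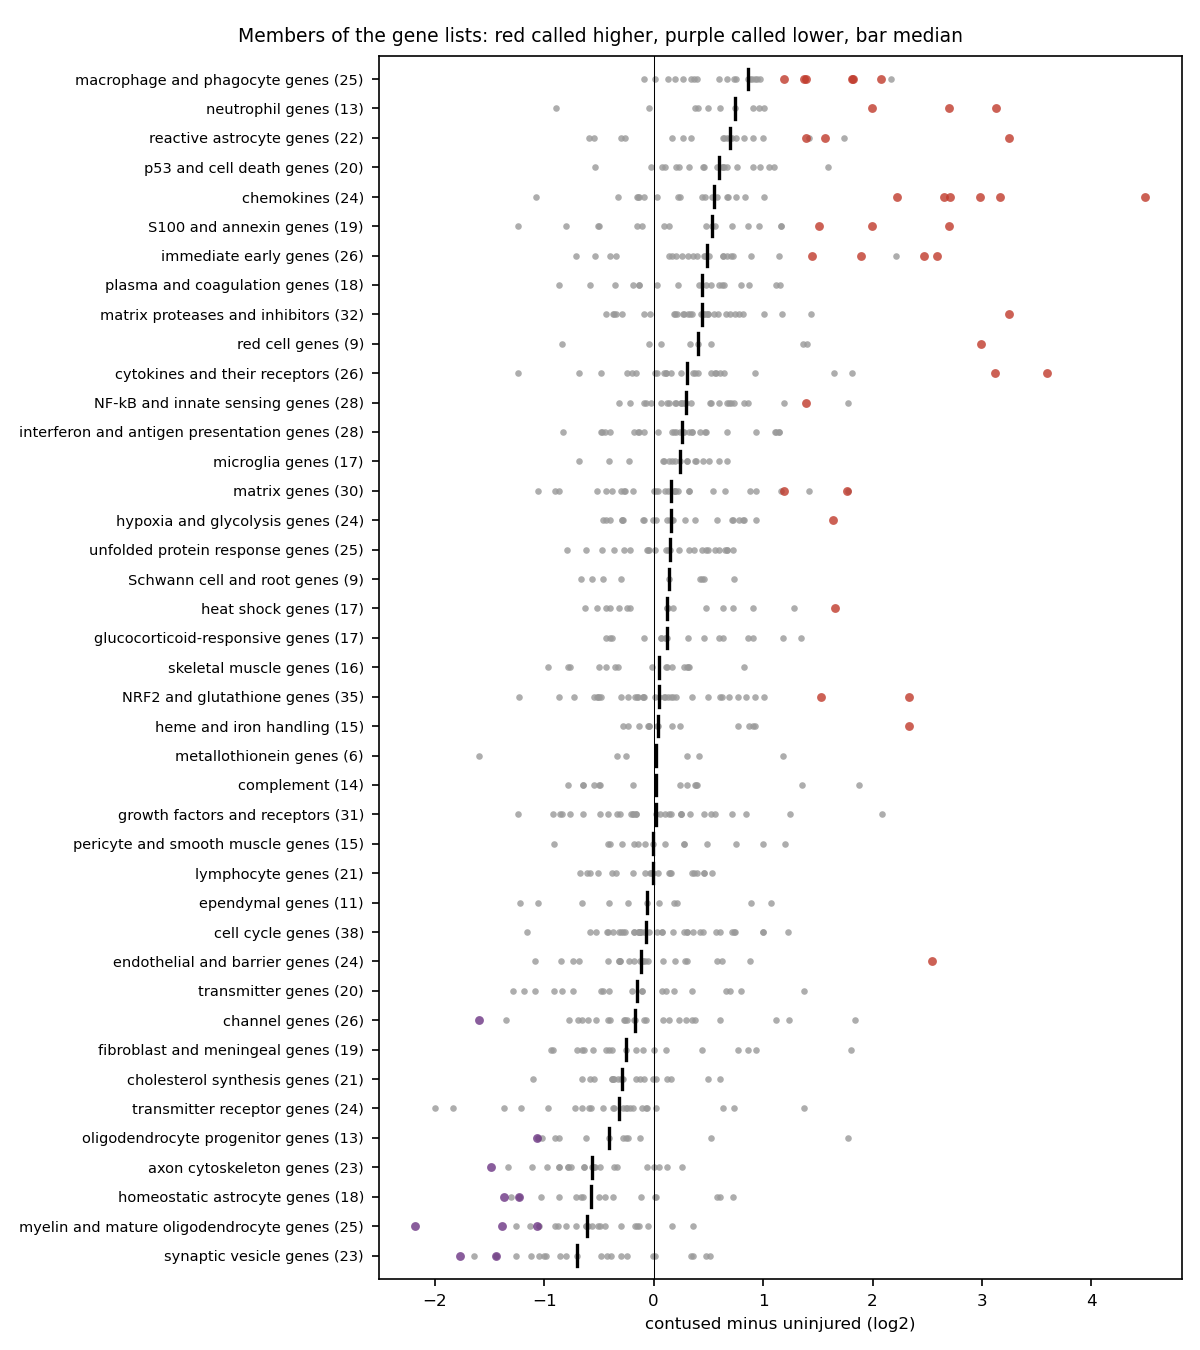
Difference between contused and uninjured cord (log2, horizontal axis) of every measured member of the 41 gene lists, 1 point per gene, ordered by list median (black bar), with members called higher in red and called lower in purple. Macrophage genes have the highest median (0.86) and synaptic vesicle genes the lowest (-0.70).

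Several processes had at most 2 calls. Of 38 cell cycle genes 0 passed (median -0.07, with -0.23 against laminectomy and 0.32 against normal cord, and 2 higher and 1 lower at an unadjusted p under 0.05 by limma). Cholesterol synthesis genes had 0 calls of 21 (median -0.28, 0 higher and 2 lower at that level) and unfolded protein response genes 0 of 25 (median 0.15, 3 higher and 1 lower). Genes of p53 and cell death had 18 of 20 positive differences (median 0.60), and their 1 call, Mcl1, was on a probe set other than that with the highest mean. Of 28 interferon and antigen presentation genes 0 passed (median 0.26, 5 higher and 0 lower at the unadjusted level by limma). Il1r2 and Ccr1 were the 2 calls among 26 cytokines and receptors, and Esm1 the 1 call among 24 endothelial genes (median -0.12). All 3 were higher calls, which 0.302% of all genes had.

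Set against each uninjured group alone, contused cord had more calls against normal cord than against laminectomy at the adjusted threshold, with less of a gap at an unadjusted p under 0.05, where limma had 2783 probe sets against normal cord and 2405 against laminectomy. The 2 comparisons share the contused arrays, and their standard errors are equal for a probe set. Against normal cord 99 probe sets were higher (0.319%) and 18 lower (0.058%), and against laminectomy 4 were higher (0.0129%) and 0 lower (0%; limma had 1333 higher and 1072 lower at an unadjusted p under 0.05). The 4 were Ccl2, at 3.03 ± 0.48 (adjusted p = 0.0415), and 3 probe sets assigned to several gene symbols, at 2.88 ± 0.39, 2.93 ± 0.47 and 2.95 ± 0.44. Of the 66 probe sets called higher against all uninjured cord, 57 differed more from normal cord than from laminectomy, with medians of 1.31 against laminectomy and 2.31 against normal cord. Of the 33 lower, 26 did so, with medians of -1.31 and -1.66.

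Several genes differed little from laminectomy beside their differences from normal cord, among them Timp1, Gpnmb (0.38 and 3.25), Tpm3 (0.40 and 4.16), Spp1 (0.45 and 1.93), Ctsl and Fos (0.89 and 4.29). Other genes also had a much larger difference from normal cord, such as Ccl6 (1.74 and 4.59), Slpi (1.98 and 4.28), Egr1 (1.21 and 3.72) and Tnfaip6 (1.03 and 2.50). Hbb, Arg1 (1.77 and 1.87), Ccl3 (2.15 and 2.29), Cd36 (2.04 and 2.11) and Slfn4 (2.18 and 2.18) differed by similar amounts from each. Ccr1 (3.79 and 3.40), Il1r2 (3.58 and 2.65), Rin2 (2.85 and 1.76) and Tfpi2 (2.82 and 1.57) differed more from laminectomy. Whether the difference between the uninjured groups passes a test for these genes was not tested here.

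**Figure D5:**
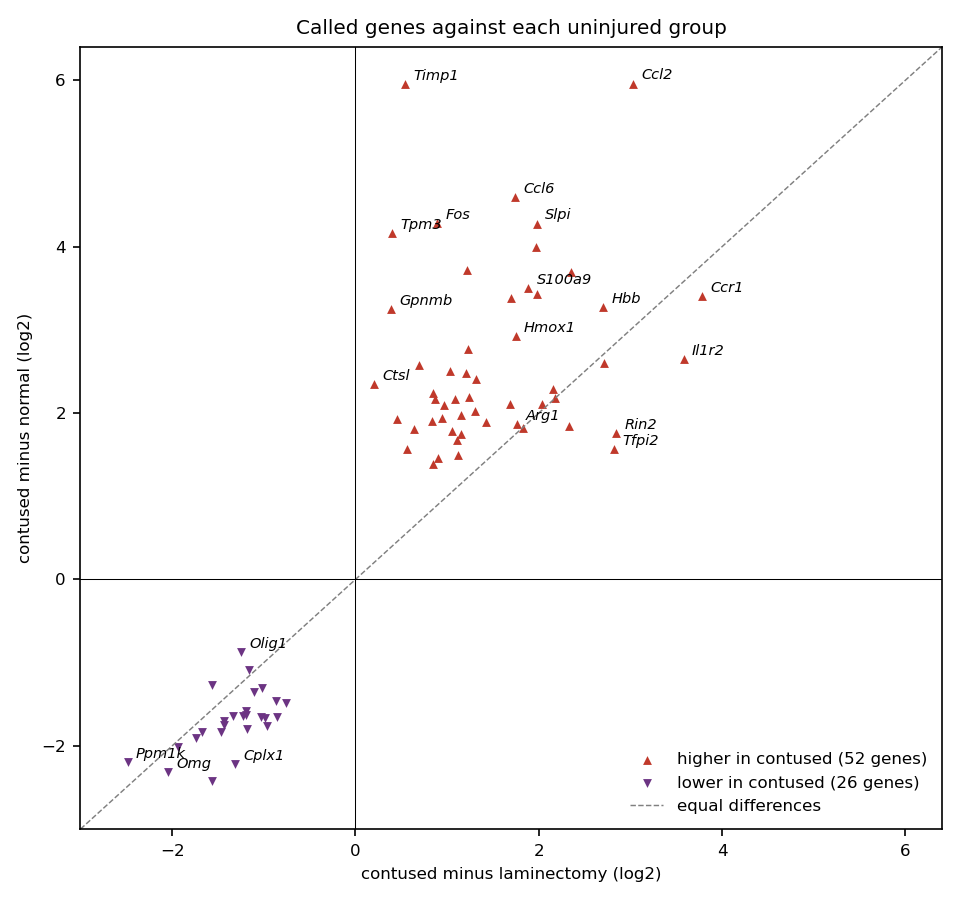
Difference of contused cord from laminectomy (log2, horizontal axis) and from normal cord (log2, vertical axis) for the 52 genes called higher (red) and the 26 called lower (purple), with the dashed line marking equal differences. Timp1 stands farthest above the line at 0.54 and 5.95, and the lower genes lie close to it.

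The 6 contused groups did not differ among themselves at the threshold: the moderated F test of limma called 0 of 31042 probe sets (0%), with 1737 at an unadjusted p under 0.05. All 6 group means lay beyond the uninjured mean for all 99 called probe sets, and beyond both uninjured group means for 60 of the 66 higher and 32 of the 33 lower. The calls were made on the mean of these same group means, so this agreement was largely set by the selection. Its share over all probe sets was not counted. Of the called probe sets, 8 higher and 6 lower had an unadjusted F p under 0.05, and the lowest adjusted F p among them was 0.527, for Ugt8. Its log2 group means were 9.15 for contusion, 10.42 for clenbuterol, 9.29 for X-ray, 8.83 for tempol, 8.48 for tempol plus BSO and 8.50 for BSO, against 10.31 for laminectomy and 10.69 for normal cord. Gpnmb was lowest with clenbuterol (9.27) and highest with contusion alone (11.49), and Ccl6 lowest with tempol (8.61) and highest with X-ray (10.87), against 10.35 (Gpnmb) and 8.03 (Ccl6) for laminectomy and 7.48 and 5.18 for normal cord.

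By list, every contused group had the same sign as the pooled comparison for chemokines, macrophage, neutrophil, reactive astrocyte and immediate early genes. The same was so for myelin, synaptic vesicle, axon and homeostatic astrocyte genes. The pooled comparison averages these same groups against the same uninjured mean, so this agreement too was largely set beforehand. Lists without calls also showed it, such as microglia genes, from 0.09 with tempol to 0.38 with contusion alone. The median macrophage difference from the uninjured mean ran from 0.56 with clenbuterol to 1.19 with X-ray, and the chemokine median from 0.39 with contusion alone to 0.84 with X-ray. The myelin median ran from -0.89 with tempol to -0.25 with clenbuterol, and the homeostatic astrocyte median from -0.99 with BSO to -0.24 with X-ray. The red cell list did not keep its sign, with -0.08 for X-ray and 1.01 for contusion alone, although Hbb was above all uninjured arrays on every contused array. Groups hold 2 or 3 arrays, and these medians were not tested.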

How the data were processed

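Each of 22 samples was measured on 1 Affymetrix rat genome array. The deposited values are linear signal intensities. The submitters' processing notes name RMA, but the deposited intensities are not logarithmic, so their log2 was taken. Every array has a trimmed mean of 250.0 to 250.1, so each was scaled to 1 common mean. The method that gave the deposited values is therefore uncertain. Signals go down to 0.3, and log2 differences that involve very low signals are less certain. No other normalization was applied. Of 31099 probe sets 57 controls were left out. Symbols came from the platform annotation, updated by Entrez number: 20826 tested probe sets had 1 symbol, 436 several and 9780 none.

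Groups followed the sample titles. All arrays entered 1 fit in limma 3.58.1 (R 4.3.3) with 8 group means. The contrast was the mean of the 6 contused group means minus that of the 2 uninjured group means, so each group has the same weight. Variances were moderated with eBayes (14 residual and 4.713 prior degrees of freedom), and p-values are two-sided with Benjamini-Hochberg adjustment over 31042 probe sets and a threshold of 0.05. The median standard error was 0.399, and the number of arrays limits the precision. In a simulation, known log2 changes of 1, 2, 3 and 4 were each given to 250 probe sets. Of these, 9.2%, 71.2%, 96% and 99.6% were recovered. Most changes of 1 were thus missed, and a gene or list without a call may still differ by that much. Quality measures were compared by exact permutation over 74613 splits.

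The 41 gene lists and the groups compared were chosen with earlier results of these data known. A list takes 1 probe set per gene, that with the highest mean, and 807 of 920 listed genes were measured. Named genes are those past the threshold with the smallest p in each direction or without overlap, list members past it or with the smallest p, and a fixed set, each by its probe set with the smallest p. Other list members given beside them, such as Mog, Mag, Gja1, Nefh, Cxcl10 and Cxcr2, were chosen after their values were seen. Replicate numbers did not pair the arrays. Alternatives were quantile normalization, an offset, a filter on low signal, trend and robust moderation, array weights, a replicate block, each array or group left out, other weights, each uninjured group alone, and a hybridization spike covariate.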

Additional observations from a re-analysis of the deposited data

Results flagged for a closer look

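For each of the 78 called genes the highest and lowest of the 6 uninjured arrays were compared with the rest by Dixon's test at its 95% critical value. It marked 4 genes, each for a single low array, and chance marks about 1 in 20 groups. Hbb was at 227.2 on normal 3, against 706.0 to 1099.7 on the other uninjured arrays. Gabbr2 was at 484.4 on laminectomy 3. Cd14 was at 91.1 on normal 1. Tfpi2 was at 21.9 on laminectomy 3. The call of Hbb held without any 1 array, with adjusted p-values up to 0.00142 (limma), and those of Gabbr2, Cd14 and Tfpi2 were each lost without some array, with adjusted p-values up to 0.0748, 0.0509 and 0.0986.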

How the results depend on the processing

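No called gene changed sign under any alternative run, and of the 78 called genes Ccl2 alone kept its call under all of them. The 99 calls became 172 with log2(signal + 32), with 79 lower, 211 among the 15521 probe sets with higher signal (123 higher, 88 lower) and 182 with trend and robust moderation (108 higher, 74 lower). With the hybridization spike covariate 100 were higher. Leaving out 1 array gave 59 (without contusion 1) to 97 calls, 45 to 67 higher and 9 (without normal 1) to 31 lower, where a group left with 1 array takes its spread from the rest. Without laminectomy 2 and normal 1, 3 were lower. Without a group the calls were 59 for contusion (11 lower) and 40 for X-ray (32 higher, 8 lower), and the lower calls 18 without tempol, 20 without tempol plus BSO and 17 without BSO. Against laminectomy alone 4 were higher and 0 lower, against normal cord 18 lower. The F test called 1 probe set among those with higher signal and 0 to 1 without 1 array. Why counts moved was not tested, except that fewer arrays or probe sets enter some fits.

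Same-numbered arrays did not deviate together (71 pairs, median correlation of deviations -0.005, from -0.200 to 0.198, 7 over 0.1), so the numbers pair nothing. With the replicate block the calls were 71, with 49 higher and 22 lower.

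Reversals touched only values that did not pass. Cd68 was -0.019 with array weights, -0.20 without laminectomy 2 and normal 1, -0.062 without the contusion group and -0.21 against normal cord, and ran from -0.060 (without normal 1) to 0.39 without 1 array. Aif1 was -0.18 with array weights, -0.64 without laminectomy 2 and normal 1, -0.23 against normal cord and -0.013 with the spike covariate, and ran from -0.46 (without laminectomy 2) to 0.63 without 1 array. Gclc was -0.080 without laminectomy 2 and normal 1 and ran from -0.024 (without normal 2; -0.0097 without laminectomy 2) to 0.42, and Mt1 from -0.011 (without laminectomy 1) to 0.61. Against laminectomy Ccnd1 was -0.10 and Lcn2 -0.090, and against normal cord Cfap126 was -0.052 and Gfap 0.19. The difference in the actin ratio ran from -0.218 to 0.0559 (without laminectomy 2) and in the hexokinase ratio from -0.545 to 0.130 (without normal 1).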
